A study of Mus musculus with 2 samples.

Results

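The red cell membrane skeleton genes described here are Sptb, Ank1, Epb41, Epb42, Slc4a1, Add1, Add2 and Tmod1, which are 8 of the 27998 genes counted in the cells of a wild-type C57BL/6 mouse liver (C57BL/6J in the supplementary methods) at E12.5, in mid-gestation. They were chosen by name, and each symbol occurs once in the deposited gene lists. According to the methods, the liver was dissociated, sorted by flow cytometry to remove debris, dead cells and doublets, and encapsulated as 2 technical replicates by droplet single-cell RNA sequencing (scRNA-seq). The unique molecular identifiers (UMIs) of each gene, which count captured RNA molecules, were summed over the cells of each cell type in the deposited annotation and, for the definitive erythroid lineage, of each subcluster from Ery 1 to Ery 6. The study named the progenitors committed to the erythroid lineage Ery (subclusters Ery 1 and Ery 2), the erythroblasts Eryb (subclusters Ery 3 to Ery 6) and the primitive erythroblasts from the yolk sac EryP. No group carried a mutation or treatment. The sample protocol describes 1 suspension from 1 liver, whereas the design text of the series speaks of 2 suspensions, and the libraries were taken here as technical replicates. On that reading, no test between animals was possible, and all differences are given as values of library 1 and library 2, in that order.

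The red cell membrane is carried from below by a mesh of spectrin, whose ends meet on short actin filaments. Protein 4.1, adducin and tropomodulin belong to these actin junctions, whereas ankyrin and protein 4.2 tie the mesh to band 3, the anion exchanger that spans the lipid bilayer. Inherited loss of such proteins makes red cells fragile and is a known cause of spherocytosis and elliptocytosis. Definitive erythroblasts mature in the fetal liver, whereas primitive erythroblasts leave the yolk sac early, mature while they circulate and express embryonic globins.

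Library 1 held 5480 kept cells with 51969226 UMIs and library 2 held 5057 kept cells with 62738015 UMIs, and 31 cell barcodes occurred in both. EryP comprised 170 and 118 cells, Eryb 3820 and 3612 cells and Ery 932 and 818 cells. The kept cells of library 1 reached down to 504 UMIs and those of library 2 to 4387 UMIs. The 7 globin genes took 2.15 and 4.82% of the UMIs of Ery, 36.7 and 59.2% of those of Eryb and 76.7 and 82.5% of those of EryP. The embryonic globins Hba-x, Hbb-bh1 and Hbb-y alone took 61.6 and 48.2% in EryP and 0.622 and 0.417% in Eryb, so that the markers fixed for EryP were highest there. Of 22 markers set for the 9 cell types, 16 were highest in CPM in their own type in both libraries, and the exceptions were Klf1, which is listed for Ery and Eryb, Hba-a1, Gata1, Epor and Myb. Because globin RNA fills such unequal parts of the libraries, every level is given on a named scale, namely as UMIs of the gene per 1000000 UMIs in all (CPM), per 1000000 UMIs that are not globin (non-globin CPM), or as mean UMIs per cell. In Eryb, the CPM of the 8 genes was 1.60 to 1.79 times as high in library 1 as in library 2, whereas the level in non-globin CPM was 1.03 to 1.15 times as high and the UMIs per cell 1.04 to 1.16 times as high. Intervals in parentheses are exact 95% intervals, Poisson for levels and ratios and binomial for shares, and they cover counting error only.

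The 8 genes lie on 7 chromosomes of the GRCm38 build. Sptb (chromosome 12, 76580488 to 76710547) encodes the beta chain of erythroid spectrin, and Ank1 (chromosome 8, 22974844 to 23150497) encodes ankyrin of the red cell. Slc4a1 (chromosome 11, 102348824 to 102366203) encodes band 3, and Epb42 (chromosome 2, 121017891 to 121037072) encodes protein 4.2, which binds band 3 and ankyrin. At the actin junctions, Epb41 (chromosome 4, 131923413 to 132075321) encodes protein 4.1, which strengthens the bond of spectrin to actin. Add1 (chromosome 5, 34573664 to 34632308) and Add2 (chromosome 6, 86028681 to 86124409) encode the alpha and beta chains of adducin, which caps the fast-growing end of the actin filaments. Tmod1 (chromosome 4, 46038935 to 46116032) encodes tropomodulin, which caps their slow-growing end. A RefSeq promoter sequence of 300 bases, from 250 bases before to 50 bases after the annotated start, was held for 6 of the 8 genes. The first 3 of the sequences below belong to genes that were higher in Ery 6 than in Ery 1 on each of the 3 scales, and the last to Add1, which was lower per cell. Capitals mark each match, on either strand, to AGATAA, the word recognised by GATA factors, or to CCNCNCCC, a word recognised by erythroid Krüppel-like factors.

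Epb42 promoter, GRCm38.p6, chr2:121036828-121037127, minus strand: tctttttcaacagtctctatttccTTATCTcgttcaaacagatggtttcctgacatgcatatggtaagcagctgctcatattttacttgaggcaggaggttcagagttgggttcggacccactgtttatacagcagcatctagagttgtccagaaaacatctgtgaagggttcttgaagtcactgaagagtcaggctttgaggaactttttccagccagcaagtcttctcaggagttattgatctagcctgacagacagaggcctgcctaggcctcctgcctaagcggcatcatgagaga

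Epb41 promoter, GRCm38.p6, chr4:132075264-132075563, minus strand: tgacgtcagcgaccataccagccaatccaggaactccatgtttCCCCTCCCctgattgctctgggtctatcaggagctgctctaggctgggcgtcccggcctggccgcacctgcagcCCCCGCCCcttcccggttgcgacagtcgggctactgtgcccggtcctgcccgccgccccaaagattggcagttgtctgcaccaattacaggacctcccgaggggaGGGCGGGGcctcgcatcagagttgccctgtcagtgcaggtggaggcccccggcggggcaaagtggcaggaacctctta

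Tmod1 promoter, GRCm38.p6, chr4:46038972-46039271, plus strand: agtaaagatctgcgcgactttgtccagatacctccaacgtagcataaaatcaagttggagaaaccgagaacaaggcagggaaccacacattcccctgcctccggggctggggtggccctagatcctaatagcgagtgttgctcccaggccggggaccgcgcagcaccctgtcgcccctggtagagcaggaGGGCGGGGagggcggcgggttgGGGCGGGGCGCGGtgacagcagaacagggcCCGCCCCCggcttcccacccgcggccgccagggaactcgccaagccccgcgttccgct

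Add1 promoter, GRCm38.p6, chr5:34573414-34573713, plus strand: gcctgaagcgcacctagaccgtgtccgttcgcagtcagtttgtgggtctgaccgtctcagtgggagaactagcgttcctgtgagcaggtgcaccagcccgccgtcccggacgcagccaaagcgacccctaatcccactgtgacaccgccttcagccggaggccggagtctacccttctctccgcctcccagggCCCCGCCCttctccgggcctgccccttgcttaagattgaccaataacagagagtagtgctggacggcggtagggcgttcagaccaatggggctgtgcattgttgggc

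AGATAA occurred in 1 of the 8 promoter sequences of these 6 genes, that of Epb42, and in 11.2% of all 32851 promoter sequences of the same length. CCNCNCCC occurred in 6 of the 8, with 3 promoter sequences counted for Epb41, and in 49.5% of all. The Epb41 sequence printed above held 3 matches to this word, and those not printed held 0 and 6. No sequence of these genes held both words, which 3.45% of all did. A match describes the letters only, and counts per gene do not show which start was used.

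Along the definitive lineage, all 8 genes were higher in Ery 6 than in Ery 1 in non-globin CPM. By the mean log2 ratio of both libraries, Add1 had the lowest ratio, with 4.67-fold (4.16 to 5.24) and 4.34-fold (3.85 to 4.9). Slc4a1 had the highest, with 92.3-fold (83.2 to 102) and 79.8-fold (72.04 to 88.6). These ratios rest on low levels in Ery 1, whose part of free RNA from outside the cell was not estimated for any member. This limit applies to Slc4a1 and also to Epb42 and Tmod1. In Ery 1, Epb42 was at 17.5 and 16.8 CPM and Tmod1 at 15.0 and 12.2 CPM. Free RNA held Epb42 at 145 and 132 CPM and Tmod1 at 93.2 and 76.5 CPM. The 8 genes followed different courses. In non-globin CPM, the junction gene Epb41, the band 3 partner Epb42 and Add2 were highest in Ery 6. For Add2 of library 1, the interval overlapped that of Ery 5. Sptb, Ank1, Slc4a1, Add1 and Tmod1 were highest in Ery 5. For Slc4a1 of library 2 and Add1 of both libraries, the intervals overlapped those of Ery 6. The adducin genes Add1 and Add2 had the smallest ratios of Ery 6 to Ery 1 on this scale. Counted per cell, the adducin genes and Ank1 were lower in Ery 6 than in Ery 1. The median UMIs of all genes per cell were 26146 and 25977 in Ery 1 and 4378 and 7882.5 in Ery 6. The subclusters were made by the authors from the same cells, so these differences describe them.

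**Figure D1:**
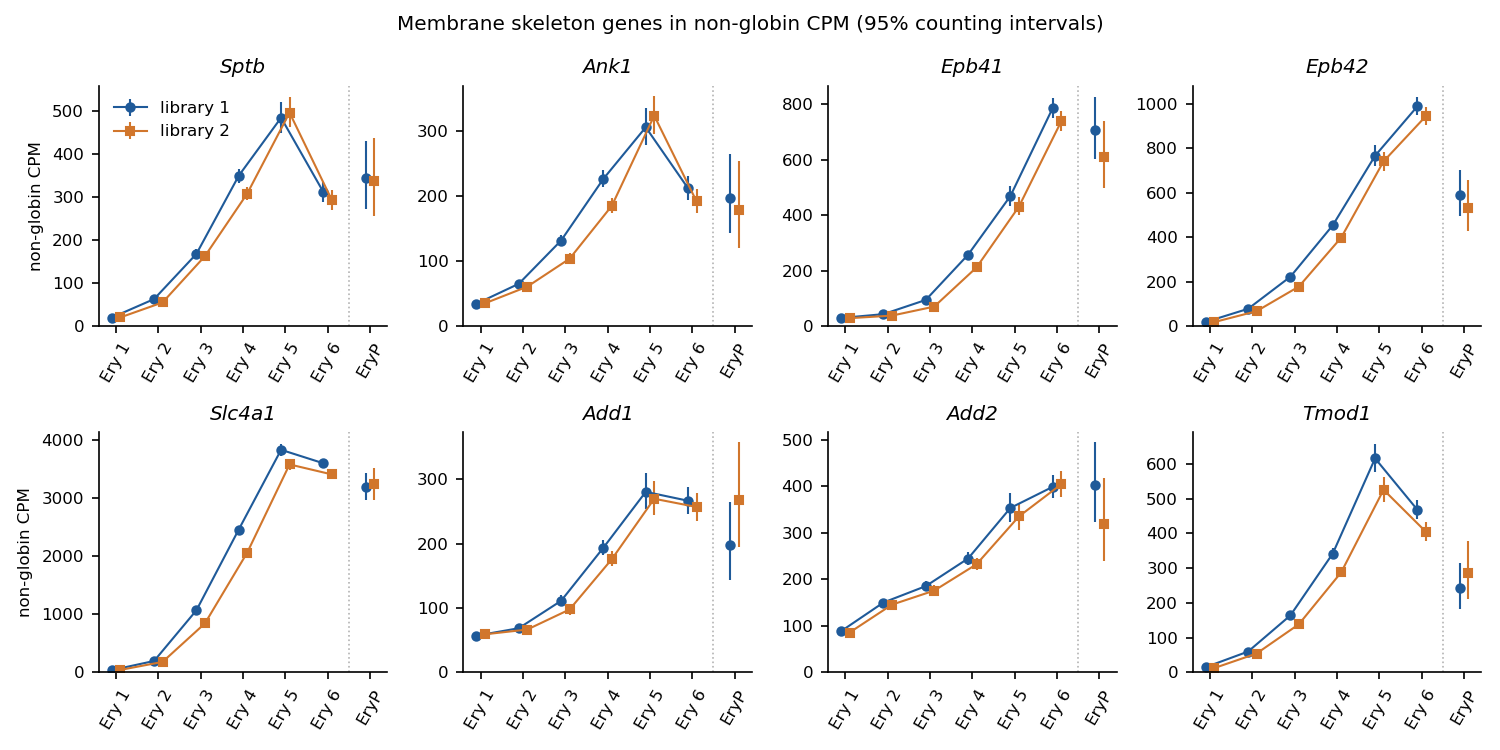
Non-globin CPM of each membrane skeleton gene (vertical axes, from 0) in the subclusters Ery 1 to Ery 6 and in EryP, with circles for library 1, squares for library 2 and bars for exact 95% Poisson intervals. Among Ery 1 to Ery 6, Epb41, Epb42 and Add2 were highest in Ery 6 of both libraries. Sptb, Ank1, Slc4a1, Add1 and Tmod1 were highest in Ery 5. The intervals of Ery 5 and Ery 6 overlapped for Add2 of library 1, Slc4a1 of library 2 and Add1 of both libraries.

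Sptb levels in non-globin CPM in Ery 1 to Ery 6 were 19.5, 62.6, 168, 350.3, 485 and 312 in library 1. In library 2 they were 19.7, 54.7, 163, 309, 497 and 293. Beta spectrin thus had its highest level in Ery 5 and fell back in Ery 6 to a level whose interval overlapped that of Ery 4 in both libraries. In CPM, the highest level was in Ery 5 too, with 237 (219.9 to 256) and 133 (123 to 142) CPM, an interval that overlapped that of Ery 4 in both libraries. Per cell, Sptb was highest in Ery 3, with 1.46 (1.37 to 1.54) and 1.48 (1.38 to 1.57) UMIs. These intervals overlapped those of Ery 5 in both libraries.

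Ank1 was at 34.1 and 34.7 non-globin CPM in Ery 1, at 305 and 323 in Ery 5 and at 212 and 191 in Ery 6. Ankyrin RNA was already present in the earliest erythroid cells, in which each cell held 0.888 and 0.877 UMIs on average. In Ery 6, this number was 0.415 and 0.347 UMIs per cell, which was 2.14-fold (1.86 to 2.46) and 2.53-fold (2.18 to 2.94) lower, whereas the CPM of Ery 6 was 2.63-fold (2.29 to 3.03) and 1.21-fold (1.05 to 1.41) that of Ery 1.

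Slc4a1 levels in non-globin CPM were 39.01, 197, 1069.6, 2459, 3831 and 3599 from Ery 1 to Ery 6 of library 1 and 42.7, 181, 843, 2062, 3579 and 3407 in library 2. The largest part of this difference lay between Ery 2 and Ery 4, where no neighbouring intervals overlapped. The intervals of Ery 5 and Ery 6 did not overlap in library 1 and overlapped in library 2. Band 3 RNA was higher in Ery 6 than in Ery 1 on each of the 3 scales, with 7.05 and 6.17 against 1.02 and 1.08 UMIs per cell. In Ery 1 it was at 38.6 and 41.7 CPM, beside 41.5 and 43.2 CPM in hematopoietic stem and progenitor cells. In the latter, Slc4a1 was not above the level that free RNA from outside the cell could give. With 10% of UMIs removed as free RNA, no Slc4a1 was left in Ery 1. The share of free RNA in Ery 1 was not estimated.

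Epb42 levels in non-globin CPM were 17.7, 77.1, 222, 454, 767 and 990.1 from Ery 1 to Ery 6 of library 1, and no neighbouring intervals overlapped. In library 2 they were 17.2, 66.4, 178, 398, 742 and 946, again with no overlap. Per cell, protein 4.2 RNA peaked in Ery 5 with 2.2 (2.07 to 2.34) and 1.96 (1.85 to 2.08) UMIs and stood at 1.94 (1.86 to 2.02) and 1.71 (1.64 to 1.79) UMIs in Ery 6.

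Epb41 levels in non-globin CPM were 28.7, 42.5, 93.8, 257, 469 and 787 from Ery 1 to Ery 6 of library 1 and 27.9, 37.2, 69.8, 211, 431 and 739 in library 2. Protein 4.1 RNA thus had its steepest part late, and it was the only member whose UMIs per cell were highest in Ery 6 of both libraries, with 1.54 (1.47 to 1.61) and 1.34 (1.27 to 1.41) UMIs. In Ery 1, Ery 2 and Ery 3 together, its UMIs per cell ranged from 0.634 to 0.813.

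Tmod1 levels in non-globin CPM went from 15.2 and 12.47 in Ery 1 to 616 and 526 in Ery 5 and 468 and 405 in Ery 6. Tropomodulin RNA was therefore lower in Ery 6 than in Ery 5, without overlap of the intervals in either library. Per cell, the values of Ery 5 and Ery 6 were 1.77 and 1.39 and, respectively, 0.917 and 0.733 UMIs.

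The adducin genes behaved otherwise. Add1 levels in non-globin CPM were 57.02, 68.6, 111, 194, 280.2 and 266 from Ery 1 to Ery 6 of library 1, but its UMIs per cell were highest in Ery 1, with 1.49 (1.36 to 1.61) and 1.49 (1.37 to 1.62), and lowest in Ery 6, with 0.522 (0.482 to 0.564) and 0.465 (0.427 to 0.506). In library 2, all neighbouring CPM intervals of Add1 in the order of levels overlapped, from 75.2 (70.3 to 80.4) CPM in Ery 4 to 55.2 (50.7 to 60.04) CPM in Ery 6. Add2 held 2.4 and 2.56 UMIs per cell in Ery 2, its highest value in both libraries, and 0.782 and 0.733 in Ery 6. In non-globin CPM, Add2 was lowest in Ery 1, at 88.7 and 85.8, and highest in Ery 6, at 399 and 405. Both chains of adducin therefore lay higher or lower in late than in early cells depending on whether non-globin UMIs or cells were the base.

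**Figure D2:**
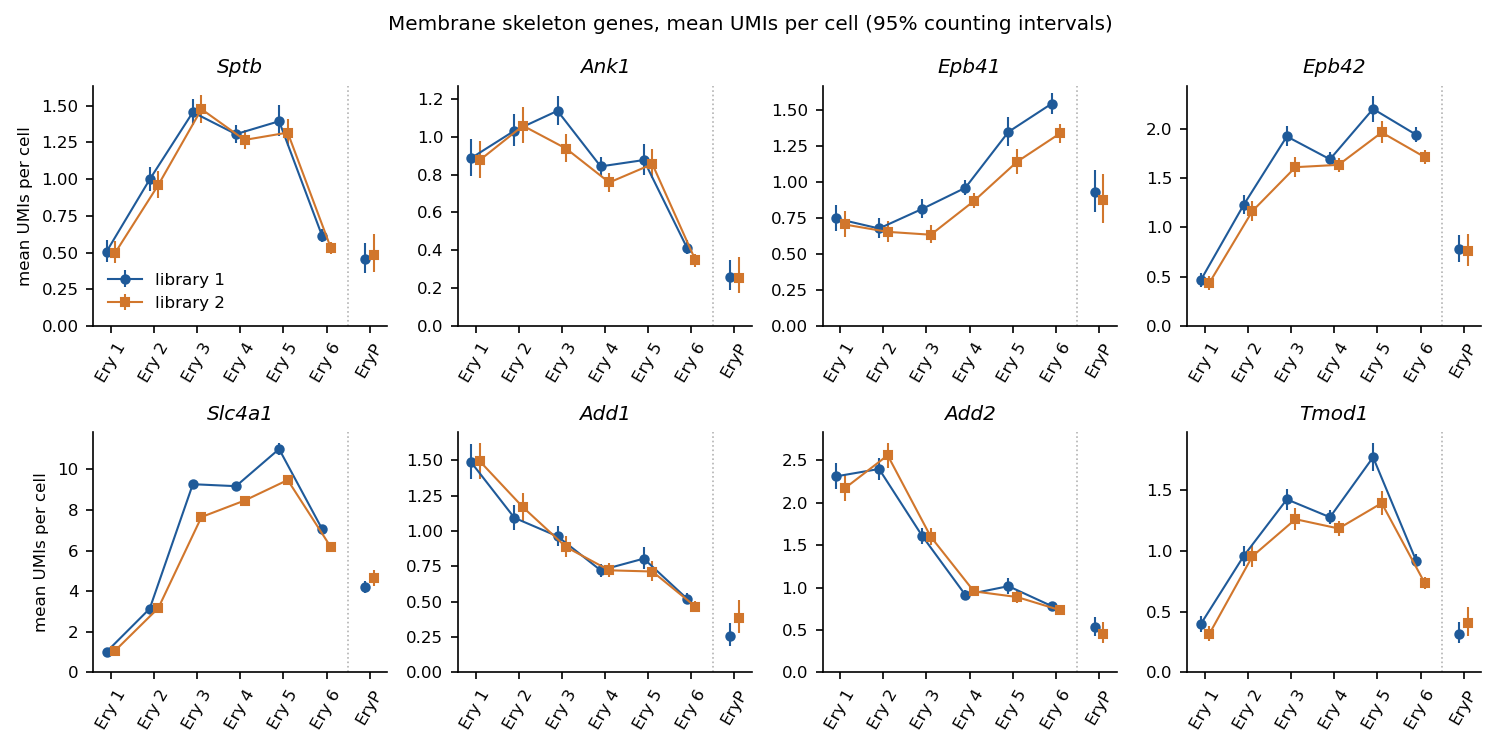
Mean UMIs per cell of each membrane skeleton gene (vertical axes, from 0) in Ery 1 to Ery 6 and in EryP, with circles for library 1, squares for library 2 and bars for exact 95% Poisson intervals. On this scale Add1 was highest in Ery 1 and Add2 in Ery 2, Epb41 was highest in Ery 6, and EryP lay below Ery 5 for every gene except Epb41 of library 2, whose intervals overlapped.

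A gene was called higher or lower where its ratio passed 2-fold in the same direction in each library. From Ery 1 to Ery 6 in CPM, 5 of the 8 members were called higher (Sptb, Epb41, Epb42, Slc4a1 and Tmod1), against 5.82% of 5088 genes, and 0 were called lower, against 75.8% of these genes. The median log2 ratio of the members was 2.64 and that of all these genes -2.98. In non-globin CPM, all 8 members were called higher, against 16.0% of genes, and 0 lower, against 53.4%. Per cell, 3 were called higher (Epb42, Slc4a1 and Tmod1), against 2.14% of genes, and 3 lower (Ank1, Add1 and Add2), against 92.5%. All 8 members passed the minimum of 10 CPM on average over the compared groups that defined the genes counted in this and the next comparisons.

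Between the annotated types, 5 of the 8 members were called higher in Eryb than in Ery by CPM, the same 5 genes, against 5.01% of 5246 genes. None was called lower, against 51.0%. In non-globin CPM, all 8 were called higher, against 14.2% of genes, and 0 lower, against 26.0%. Per cell, 2 were called higher (Epb42 and Slc4a1), against 1.32% of genes, and 1 lower (Add2), against 88.4%. In non-globin CPM the mean log2 ratio ranged from 1.11 for Add2 to 4.21 for Slc4a1.

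The cells of Ery and Eryb were also ordered by their share of adult globin UMIs, in 10 groups of equal size within each library. This order did not use the borders of the subclusters, but it rests on the same cells and counts. Globin UMIs also set the total of non-globin CPM, so the courses are a description. Epb41 was highest in the last group of both libraries in non-globin CPM, at 1071 and 1054, as was Epb42, at 1105 and 1073. The intervals of groups 9 and 10 overlapped in both libraries for Epb42 and in neither for Epb41. Sptb and Ank1 were highest in group 8 of both libraries on this scale, with intervals that overlapped those of group 7. In CPM, Sptb was highest in groups 6 and 5 and Ank1 in groups 5 and 4. On the same scale, Epb42 was highest in groups 9 and 8 and Epb41 in groups 10 and 9. Per cell, these were groups 4 and 3 for Sptb and groups 3 and 2 for Ank1. They were groups 7 and 8 for Epb42 and groups 10 and 9 for Epb41. Slc4a1 was highest in group 10 of library 1, at 3886, and in group 9 of library 2, at 3728, in contrast to its highest level in Ery 5, and the intervals of groups 9 and 10 overlapped in both libraries. The UMIs per cell of Add1 went from 1.31 and 1.44 in group 1 to 0.385 and 0.312 in group 10.

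UMIs of all 8 genes were counted in EryP, the primitive erythroblasts. In barcodes with 1 to 50 UMIs, which hold free RNA, the CPM of Sptb was 93.2 and 82.1, that of Ank1 66.4 and 51.5, that of Epb42 145 and 132, that of Add1 78.5 and 66.8 and that of Tmod1 93.2 and 76.5, which was higher than in EryP in both libraries for these 5 genes. The values of Epb41 and Slc4a1 were higher in EryP than in free RNA in both libraries, and that of Add2 in library 1 alone. The intervals of EryP and free RNA lay apart in both libraries for Epb41 alone, and they overlapped in both for Sptb, Ank1 and Slc4a1. Epb42 and Add2 lay apart in library 2 alone and Add1 and Tmod1 in library 1 alone, each lower in EryP. These levels are in CPM of all UMIs, of which globin took 76.7 and 82.5% in EryP. The free RNA values are those of free RNA on its own and not the part that it took in EryP. Outside the erythroid lineage, the largest share of UMIs that free RNA could take, derived below, ranged from 5.06 to 14.6%. The share of free RNA in the UMIs of EryP was not estimated. With 10% of UMIs removed as free RNA, the median log2 ratio of the members to Eryb was -1.08. In CPM, the mean log2 ratio of EryP to Eryb was below 0 for every member, from -1.48 for Tmod1 to -0.06 for Epb41, but it was above 0 for all members except Tmod1 once globin UMIs were left out of the total. Ank1 and Tmod1 were called lower in CPM, as were 71.3% of 2993 genes. Epb41 was called higher in non-globin CPM, as were 6.68% of these genes. Epb41 had the highest mean ratio among the members on each scale.

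**Figure D3:**
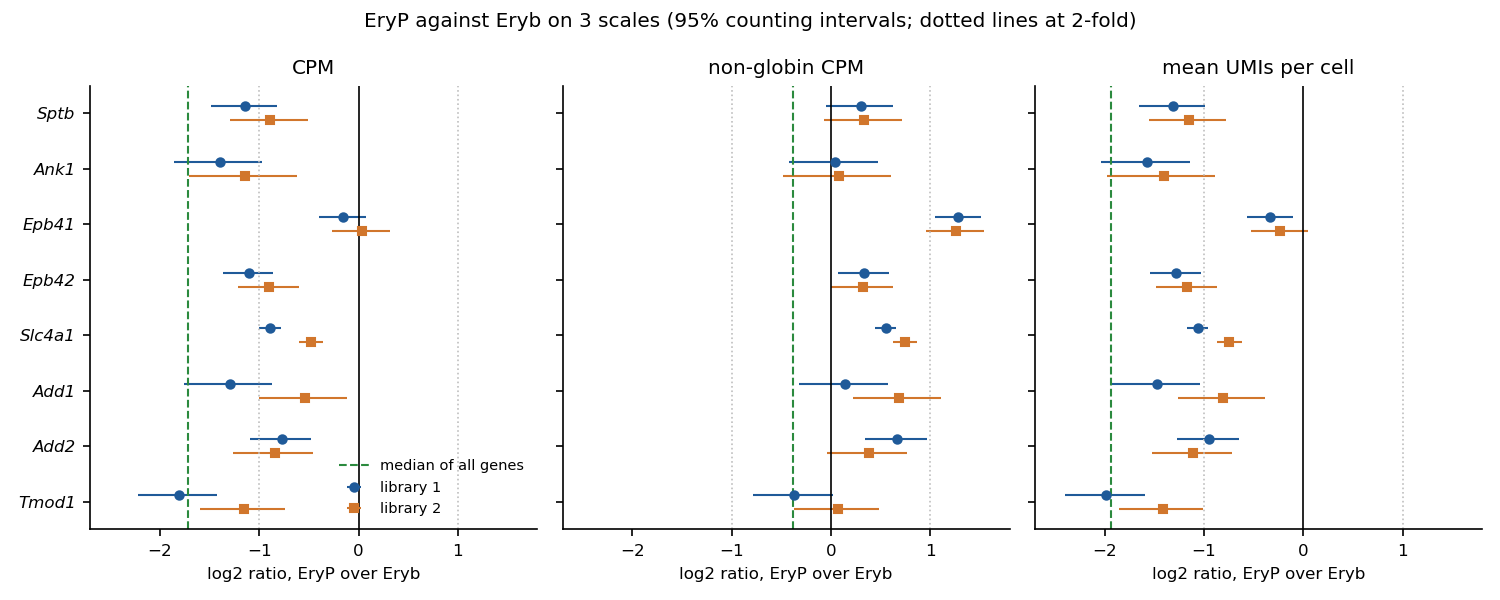
Log2 ratio of EryP to Eryb for each membrane skeleton gene (horizontal axes) in CPM of all UMIs, in non-globin CPM and in mean UMIs per cell, with circles for library 1, squares for library 2, bars for exact 95% intervals, a dashed line at the median of all genes and dotted lines at 2-fold. The direction depended on the scale, since mean ratios below 0 for all 8 genes in CPM and per cell lay above 0 for 7 of them in non-globin CPM, and Epb41 lay farthest to the right on each scale.

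Sptb was at 80.4 (63.4 to 100.4) and 59.04 (44.7 to 76.5) CPM in EryP and at 177 (172 to 183) and 109 (106 to 113) CPM in Eryb. In non-globin CPM it was at 345 and 338 in EryP and 279.9 and 268 in Eryb, and the ratio was 1.23-fold (0.97 to 1.54) and 1.26-fold (0.954 to 1.64). The direction for beta spectrin thus turned with the base, and the second ratio had an interval that included 1 in both libraries.

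Ank1 was at 45.9 (33.4 to 61.6) and 31.1 (20.96 to 44.4) CPM in EryP and at 121 (117 to 126) and 68.4 (65.8 to 71.2) CPM in Eryb, which was 2.64-fold (1.96 to 3.64) and 2.2-fold (1.54 to 3.27) lower. These EryP values rested on 44 and 30 UMIs, and among cells with at least 500 genes the mean log2 ratio was -1.17 but 2-fold was not passed in each library. Leaving out globin UMIs, ankyrin stood at 197 and 178 non-globin CPM in EryP and at 191 and 168 in Eryb, with a ratio of 1.03-fold (0.747 to 1.39) and 1.06-fold (0.714 to 1.52).

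Slc4a1 was at 744 (691 to 801) and 565 (519 to 615) CPM in EryP and at 1378 (1364 to 1393) and 788 (779 to 797) CPM in Eryb. In non-globin CPM, band 3 was higher in EryP, at 3192 (2962 to 3435) and 3238 (2972 to 3521) against 2177 (2154 to 2201) and 1931 (1909 to 1954), without overlap of the intervals. Each EryP cell held 4.19 and 4.63 UMIs on average and each Eryb cell 8.75 and 7.74.

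Epb42 was at 138 (115 to 163) and 93.2 (74.95 to 115) CPM in EryP and at 297 (289.7 to 303) and 174 (169.8 to 178) CPM in Eryb. Its ratio of EryP to Eryb was 0.465-fold (0.388 to 0.552) and 0.535-fold (0.43 to 0.659) in CPM and 1.26-fold (1.05 to 1.5) and 1.25-fold (1.004 to 1.54) in non-globin CPM. Protein 4.2 RNA therefore changed side with the base.

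Epb41 was at 165 (140.2 to 193) and 107 (87.1 to 129) CPM in EryP and at 184 (178 to 189) and 104 (101 to 108) CPM in Eryb, so that the intervals overlapped in both libraries. In non-globin CPM, protein 4.1 RNA was at 707 (601 to 827) and 611 (499 to 741) in EryP and at 290.4 (282 to 299) and 255 (247 to 264) in Eryb. This was 2.44-fold (2.07 to 2.86) and 2.39-fold (1.95 to 2.91) higher in EryP. Per cell it was 1.26-fold (1.07 to 1.48) and 1.17-fold (0.964 to 1.44) lower, with 0.929 and 0.873 UMIs in EryP.

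Add1 was at 45.9 (33.4 to 61.6) and 46.6 (34.00 to 62.4) CPM in EryP and at 113 (109 to 117) and 67.8 (65.1 to 70.6) CPM in Eryb. The libraries differed most for this gene among the 8, with a ratio of 0.407-fold (0.295 to 0.548) and 0.687-fold (0.50 to 0.922) in CPM and 1.11-fold (0.802 to 1.49) and 1.6-fold (1.17 to 2.15) in non-globin CPM. Add2 was at 93.9 (75.5 to 115) and 55.9 (42.01 to 72.97) CPM in EryP and at 161 (156 to 166) and 100.4 (97.1 to 104) CPM in Eryb. Both adducin genes had mean log2 ratios below 0 in CPM and above 0 in non-globin CPM.

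Tmod1 was at 56.4 (42.3 to 73.5) and 49.7 (36.7 to 65.9) CPM in EryP and at 197 (192 to 203) and 110.4 (107 to 114) CPM in Eryb, which was 3.5-fold (2.68 to 4.67) and 2.22-fold (1.67 to 3.02) lower. Among cells with at least 500 genes the mean log2 ratio was -1.24 and 2-fold was not passed in each library. It was the only member whose mean log2 ratio stayed below 0 in non-globin CPM, at -0.15, with 0.775-fold (0.581 to 1.01) and 1.05-fold (0.774 to 1.4), so that library 2 alone lay above 1. Tropomodulin thus had the lowest ratio of EryP to Eryb among the members on each of the 3 scales, as a mean of the libraries.

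In CPM, 2 of the 8 members were called lower in EryP than in Eryb, against 71.3% of 2993 genes, and 0 were called higher, against 1.74%. The median log2 ratio of the members was -0.96 and that of all these genes -1.72. Leaving globin UMIs out of the total moved the median of all genes to -0.38 and that of the members to 0.37. On that scale 0 members were called lower, against 17.2% of genes, and 1 higher, against 6.68%. Per cell, 4 members were called lower (Sptb, Ank1, Epb42 and Tmod1), against 79.1% of genes, and 0 higher, against 1.67%. Taken relative to the median ratio of all genes, the means of both libraries lay above 0 for all 8 members. They ranged from 0.22 for Tmod1 to 1.64 for Epb41 on the log2 scale. With each library on its own, the median log2 ratio of all genes in CPM was -1.80 and -1.57. The intervals of Tmod1 (-2.22 to -1.42 and -1.59 to -0.741) and Ank1 (-1.86 to -0.97 and -1.71 to -0.622) included these medians. Those of the other members lay above them. EryP cells had a median of 556 and 530.5 detected genes and Eryb cells of 1236 and 1184, and the part of this difference in the ratios was not tested.

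Eryb spans cells from Ery 3 to Ery 6. Against Ery 6 alone, the median log2 ratio of the members was -0.75 in CPM and -0.18 in non-globin CPM, beside medians of all genes of -0.61 and -0.04. In CPM, 1 member was called lower in EryP than in Ery 6 (Epb42), against 23.7% of 2037 genes, and 0 higher, against 3.34%. In non-globin CPM, the intervals of EryP and Ery 6 overlapped in both libraries for Sptb, Ank1, Epb41, Add1 and Add2. Epb42 and Tmod1 were lower in EryP than in Ery 6 in both libraries, with 1.68-fold (1.41 to 2.01) and 1.77-fold (1.43 to 2.21) and, respectively, 1.94-fold (1.47 to 2.59) and 1.42-fold (1.06 to 1.94). Slc4a1 was lower in library 1 and overlapped in library 2. In CPM, EryP was lower than Ery 6 without overlap in both libraries for Epb41, Epb42, Slc4a1, Add2 and Tmod1. Overlap of intervals was not counted over all genes, so these lists describe the members and do not set them apart from other genes.

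The share of each gene in the UMIs of the 8 genes together does not depend on the globin total. Epb41 made up 12.04% (10.3 to 13.9) and 10.6% (8.72 to 12.7) of these UMIs in EryP and 6.99% (6.8 to 7.2) and 6.85% (6.63 to 7.06) in Eryb. Tmod1 made up 4.12% (3.11 to 5.34) and 4.93% (3.66 to 6.49) in EryP and 7.51% (7.31 to 7.72) and 7.25% (7.03 to 7.47) in Eryb. These were the only members whose intervals did not overlap between EryP and Eryb in either library, Epb41 being higher and Tmod1 lower in EryP. Ery 6 held Epb41 at 11.2% and 11.1% and Tmod1 at 6.65% and 6.09%. During maturation, Add2 went from 29.6% and 28.6% of the UMIs of the 8 genes in Ery 1 to 5.68% and 6.09% in Ery 6, Add1 from 19.02% and 19.7% to 3.79% and 3.87%, and Slc4a1 from 13.01% and 14.2% to 51.2% and 51.3%. Free RNA was not taken out of these shares.

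**Figure D4:**
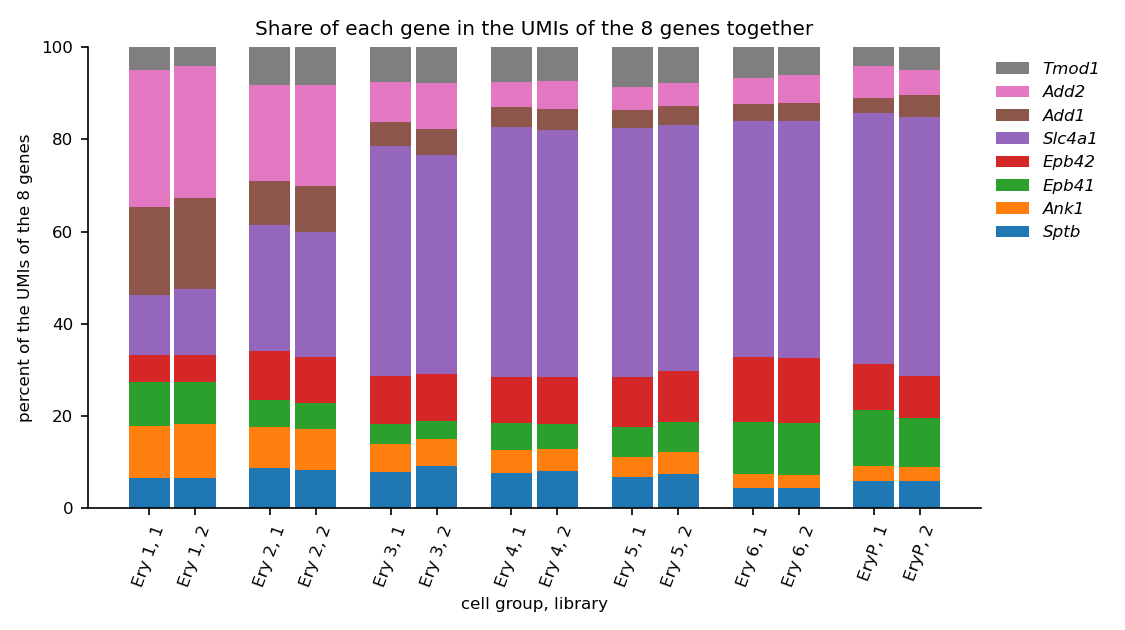
Share of each membrane skeleton gene in the summed UMIs of the 8 genes (vertical axis, percent) in Ery 1 to Ery 6 and EryP of library 1 and library 2. The shares of the adducin genes Add1 and Add2 were largest in Ery 1, and Epb41 made up 12.04% and 10.6% in EryP.

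To compare single cells of unequal depth, each cell was thinned to 3600 UMIs, which left out 29 and 0 EryP cells, 455 and 0 Eryb cells and 155 and 0 Ery cells. The 3600 UMIs included globin UMIs, which took 76.7 and 82.5% of the UMIs of EryP and 36.7 and 59.2% of those of Eryb. The thinned values therefore follow the scale of CPM and not that of non-globin CPM. After thinning, an Eryb cell held UMIs of 4.15 and 3.07 of the 8 genes on average, an EryP cell of 2.71 and 2.2 and an Ery cell of 1.42 and 1.28. Slc4a1 was found in 95.04% (90.04 to 97.98) and 88.1% (80.9 to 93.4) of EryP cells and in 97.9% (97.4 to 98.4) and 91.4% (90.5 to 92.3) of Eryb cells. Epb41 was found in 37.6% (29.6 to 46.1) and 27.1% (19.3 to 36.1) of EryP cells and in 46.9% (45.2 to 48.6) and 31.6% (30.1 to 33.2) of Eryb cells. Tmod1 was found in 20.6% (14.2 to 28.2) and 15.3% (9.3 to 23.03) and 50.5% (48.8 to 52.3) and 32.3% (30.8 to 33.9) of these cells. Without thinning, the shares for Tmod1 were 24.1% and 26.3% of EryP and 65.3% and 61.2% of Eryb. In hematopoietic stem and progenitor cells (HPSC in the annotation), Epb42 was found in 0.948% (0.115 to 3.38) and 3.37% (1.36 to 6.81) of thinned cells and Tmod1 in 3.79% (1.65 to 7.33) and 2.88% (1.07 to 6.17), with a median of 16053 and 14956 UMIs per cell before thinning against 5633 and 7160.5 in EryP. Slc4a1 was found in 22 of 211 and 26 of 208 thinned HPSC (intervals of 6.65 to 15.4% and 8.33 to 17.8%) and Epb41 in 8.53% (5.13 to 13.1) and 6.73% (3.73 to 11.04). Without thinning, Tmod1 was found in 13.1% and 7.21% of HPSC. HPSC were thinned from a greater depth than EryP, so that these shares are no measure of the free RNA in EryP droplets.

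Outside the erythroid lineage, Add1 and Epb41 were found above the level that free RNA could give. In the barcodes of free RNA, Slc4a1 made up 675 and 529.5 CPM and Hbb-bs 88863 and 167506 CPM. The Hbb-bs level of each other cell type sets the largest share of free RNA that its UMIs can contain. A gene was said to exceed the level expected at that share where its whole interval lay above the upper bound of that level. Add1 did so in 6 of 6 other cell types in both libraries. In endothelial cells (EC), for example, it was at 72.5 (43.7 to 113) and 86.5 (63.96 to 114) CPM, against upper bounds of 13.4 and 4.02 CPM for free RNA. Epb41 exceeded it in 5 of 6. Its highest level was in megakaryocytes (Mk), with 104 (82.4 to 129) and 60.1 (46.01 to 77.3) CPM, against upper bounds of 8.40 and 10.8 CPM for free RNA. No type had Epb42 or Slc4a1 above it in both libraries. In 1 library alone, Epb42 exceeded it in hepatoblasts (Hepa) of library 1 and megakaryocytes of library 2, and Slc4a1 in both these types of library 2. Sptb and Tmod1 exceeded it in megakaryocytes and hepatoblasts of both libraries, and Ank1 and Add2 in hepatoblasts of both. In library 2 alone, Ank1 and Add2 did so in megakaryocytes and Tmod1 in endothelial cells. In hepatoblasts Sptb was at 24.99 (14.3 to 40.6) and 35.8 (23.98 to 51.4) CPM, against upper bounds of 9.35 and 9.92 CPM for free RNA. Hepatoblasts comprised 33 and 31 cells and endothelial cells 20 and 26 cells, and pairs of cells caught in the same droplet were not tested as a source.

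**Figure D5:**
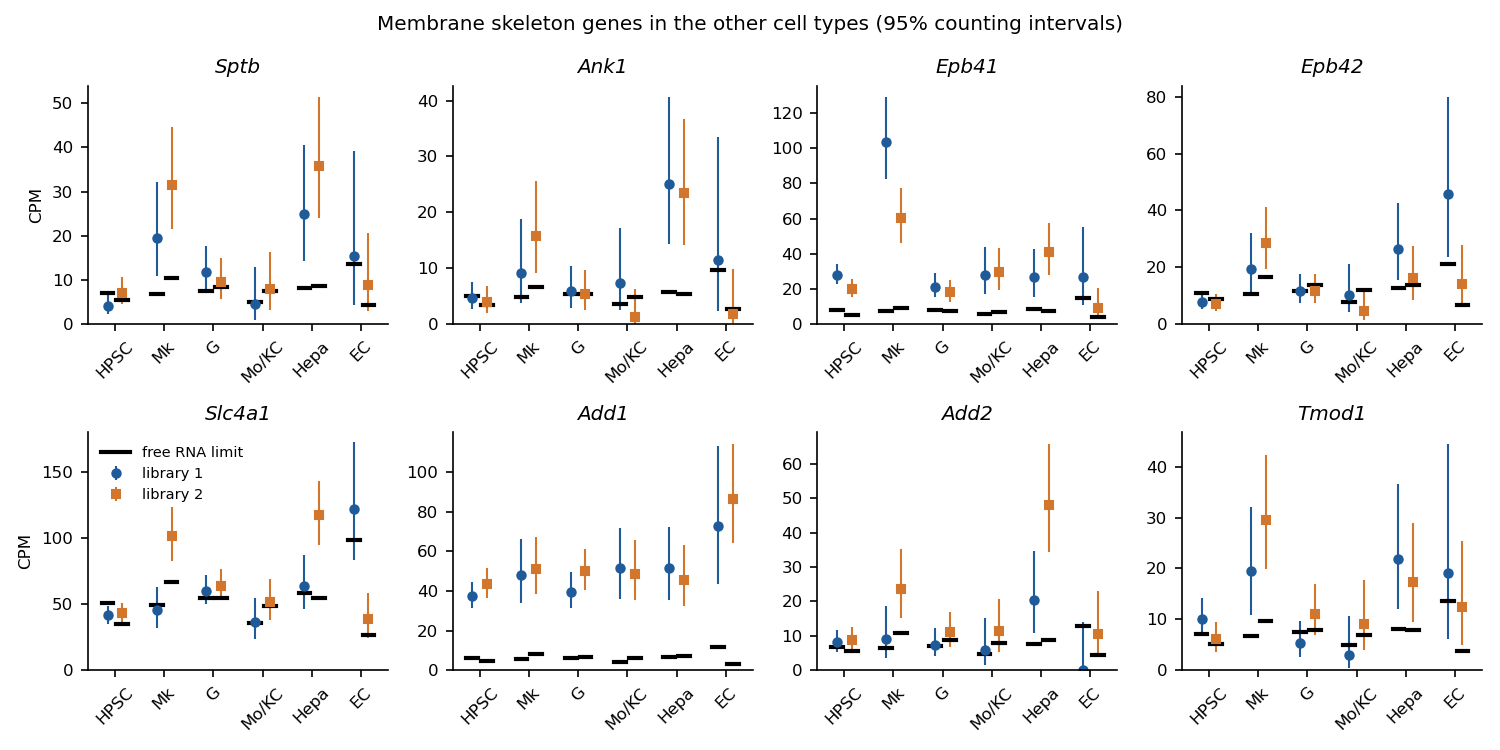
CPM of each membrane skeleton gene (vertical axes, from 0) in the 6 cell types outside the erythroid lineage, namely HPSC, Mk, granulocytes (G), monocytes and Kupffer cells (Mo/KC), Hepa and EC, with circles for library 1, squares for library 2 and bars for exact 95% Poisson intervals. Black marks show the level expected of free RNA at its largest share, without the upper bound of that level. Add1 lay above the mark in all 6 types and Epb41 was highest in Mk. The whole intervals of Epb42 and of Slc4a1 lay above the upper bound of that level in Mk and Hepa, each time in 1 library alone.

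Of 22 listed genes of the red cell membrane that accompany the members, 20 passed the minimum level in EryP and Eryb. In CPM, 16 of these were called lower in EryP and 0 higher, beside the backgrounds of 71.3% and 1.74%, with a median log2 ratio of -1.86. In non-globin CPM, 4 were called lower and 2 higher, beside the backgrounds of 17.2% and 6.68%, with a median of -0.53 against -0.38 for all genes. Xk, which encodes a membrane protein bound to the Kell antigen, had the highest ratio of EryP to Eryb, with 1.51-fold (1.18 to 1.91) and 1.6-fold (1.16 to 2.16) in CPM and 4.1-fold (3.2 to 5.17) and 3.74-fold (2.71 to 5.05) in non-globin CPM. Kel, which encodes the Kell antigen itself, followed with 0.743-fold (0.642 to 0.856) and 0.962-fold (0.812 to 1.13) and 2.02-fold (1.74 to 2.32) and 2.25-fold (1.9 to 2.65), and Ermap with 0.57-fold (0.493 to 0.655) and 0.693-fold (0.578 to 0.824) and 1.55-fold (1.34 to 1.78) and 1.62-fold (1.35 to 1.92). The direction for Ermap turned between these scales and that for Xk did not. That for Kel turned in library 1, whereas in library 2 its interval in CPM included 1. At the other end, Cd47, which marks red cells as self for macrophages, was 12.9-fold (9.999 to 16.96) and 6.09-fold (4.87 to 7.72) lower in EryP by CPM and 4.75-fold (3.68 to 6.25) and 2.61-fold (2.08 to 3.3) lower in non-globin CPM. Atp2b4, a calcium pump of the plasma membrane, was 8.43-fold (5.39 to 14.02) and 6.45-fold (3.9 to 11.5) lower by CPM and 3.11-fold (1.99 to 5.16) and 2.76-fold (1.67 to 4.94) lower in non-globin CPM. Aqp1, the water channel, did not pass the minimum level and had 1 UMI in EryP of each library against 358 and 315 in Eryb, a CPM ratio of 0.0707-fold (0.00179 to 0.397) and 0.117-fold (0.00294 to 0.655).

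Of 19 listed paralogues of the members, 3 reached 10 CPM in Ery, Eryb or EryP of both libraries. Add3, which encodes the gamma chain of adducin, was at 16.4 and 13.3 CPM in Ery, 6.97 and 4.23 CPM in Eryb and 8.35 and 8.29 CPM in EryP. Tmod3, the widely expressed tropomodulin, was at 18.2 and 15.2, 12.6 and 7.05 and 9.39 and 7.25 CPM in these types. Tgm2, a transglutaminase related to protein 4.2, was at 15.6 and 17.5, 37.2 and 21.3 and 9.39 and 5.18 CPM and was called lower in EryP than in Eryb by CPM but not in non-globin CPM.

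The genes whose levels ran most alike to each member over 13 cell groups, by Pearson's r of log2(CPM + 1) taken as the lower of both libraries among 9470 genes, are given as a description, since the groups share libraries and globin totals. For Sptb these were Rhd (r = 0.965), Slc6a9 (r = 0.955) and Urod (r = 0.953), and for Ank1 Ermap (r = 0.969), Cpox (r = 0.952) and Slc30a10 (r = 0.948). For Slc4a1 they were Slc25a37 (r = 0.984), Hba-a1 (r = 0.984) and Hbb-bt (r = 0.983), and for Epb42 they included Fam210b (r = 0.977) and Kel (r = 0.966). For Epb41 they included Cpeb4 (r = 0.934) and Mkrn1 (r = 0.927), and for Tmod1 Fam210b (r = 0.966). Add2 was most like Ell2 (r = 0.931), Asb17os (r = 0.927) and Blvrb (r = 0.918). Add1 was most like Slc43a3 (r = 0.898), Tprgl (r = 0.840) and Tmc6 (r = 0.831), and with the other members its r ranged from -0.03 with Epb41 to 0.49 with Tmod1. Among the other 7 members, r ranged from 0.65 between Epb41 and Add2 to 0.96 between Sptb and Tmod1.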

How the data were processed

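For 2 technical replicates of 1 wild-type liver, the authors deposited raw UMI counts that had not been normalized, by gene and barcode, and an annotation that gives the cluster and type of each kept cell. According to the methods and the submitters' processing notes, the authors used bcl2fastq 2, Cell Ranger 2.1.1, Seurat 3.2.0, mm10 and a GRCm38 annotation, kept cells with at least 200 genes and clustered both libraries together, so that clusters and levels come from the same counts. The matrix header of library 1 names software version 3.0.0. Doublets were removed by sorting before encapsulation, and none were removed here.

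From these counts, UMIs were summed per library and cell group with Python 3.11.15, numpy 2.4.6, pandas 2.3.3 and scipy 1.17.1, and figures drawn with matplotlib 3.10.9. Intervals are exact (95%) and cover counting error only. Calls needed 2-fold in the same direction in each library, over genes with a mean of at least 10 CPM in the compared groups. Thinning to 3600 UMIs used seed 1. The scripts were tested on simulated counts. Since there was 1 liver, no test was run.

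The members and lists were chosen with earlier results of these data known. Beside the members, the genes named were the 3 partners with the highest and the 3 with the lowest ratio of EryP to Eryb, paralogues with at least 10 CPM in Ery, Eryb or EryP of both libraries, and the 3 genes most like each member, of which some are not reported here. The alternatives tried comprised single libraries, 4 scales, filters of cells and levels, removal of 10% of UMIs as free RNA, a fold of 1.5 and other erythroblasts. The shares within the 8 genes, the largest share of free RNA and a filter on shallow cells were added after the data had been seen. Gene positions are from GENCODE vM21 (GRCm38) and promoters from RefSeq (GRCm38.p6).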

Additional observations from a re-analysis of the deposited data

How the results depend on the processing

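EryP against Eryb depended on the scale. Leaving globin UMIs out of the total gave 0 members lower and 1 higher (against 17.2 and 6.68% of genes), in place of 2 and 0 (against 71.3 and 1.74%). The median log2 ratio was 0.37 and that of Ank1 0.064, in place of -0.96 and -1.27. Dividing by the median ratio of all genes gave 0 lower and 1 higher (against 8.75 and 11.6% of genes), a median of 0.74, 0.43 for Ank1 and 0.22 for Tmod1. UMIs per cell gave 4 lower, against 79.1% of genes, and a median of -1.18. With cells of at least 500 genes, 0 members were called lower (Ank1 and Tmod1 were lost), against 60.7% of all genes, with a median of -0.96. A fold of 1.5 gave 5 lower, against 83.3%. Ery 6 in place of Eryb gave 1 lower, against 23.7%, and a median of -0.75, beside -0.61 for all genes. Ery 5 gave 4 lower, against 44.2%, and a median of -1.18, beside -1.14 for all genes. With 1 library left out, the members called lower were 2 to 5 (2 without library 1, against 73.5% of genes, and 5 without library 2, against 79.5%). For Eryb against Ery, non-globin CPM gave 8 higher (against 14.2% of genes) and a median of 2.93. Division by the median ratio gave 8 higher (against 20.5%) and 3.32. UMIs per cell gave 1 lower, 2 higher (against 88.4 and 1.32%) and 0.58. CPM had given 0 lower, 5 higher (against 51.0 and 5.01%) and 2.00. For Ery 6 against Ery 1, non-globin CPM gave 8 higher (against 16.0%) and 4.35. Division by the median ratio gave 8 higher (against 30.2%) and 5.61. UMIs per cell gave 3 lower, 3 higher (against 92.5 and 2.14%) and 0.58. CPM had given 0 lower, 5 higher (against 75.8 and 5.82%) and 2.64. The cause was not tested beyond the change of scale. With 10% of UMIs removed as free RNA, no Slc4a1 was left in Ery 1, so its ratio there is not given. The other settings, among them cells of library 1 as deep as those of library 2, kept the counts of called members within 1.5-fold. EryP comprised 170 and 118 cells, and for Ank1 the depth was 44 and 30 UMIs. No paired analysis was possible because there was 1 condition and no test.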
